A study of Mus musculus with 6 samples.

Results

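The genes described here encode the adaptor, kinases and ligase that carry the IL-33 signal from its receptor to NF-kappaB. They are Myd88, Irak1, Irak2, Irak3, Irak4, Traf6, Map3k7, Tab1, Tab2 and Map3k8. They were taken by symbol for their place in the pathway, and all 10 were found among the 18543 genes of the count table. Their messenger RNA was measured in group 2 innate lymphoid cells (ILC2s), tissue lymphocytes without rearranged antigen receptors that release type 2 cytokines on contact with epithelial alarmins. The cells were sorted from lungs of C57BL/6 mice aged 8 weeks. Every mouse, of either genotype, had received 0.5 µg of recombinant mouse IL-33 by the nose on each of 3 days, and cells were taken on day 4, so no library shows the pathway at rest. Wild type was the label of 3 libraries and Atg5-/- that of 3 more, each begun from 10 ng of RNA. They go by their labels, WT 1 to WT 3 and KO 1 to KO 3, since the Atg5 level goes against the label in places. The sources used here do not give the cell type in which Atg5 was deleted, the deleted exons or any pooling of mice.

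IL-33 binds ST2, encoded by Il1rl1, which pairs with the accessory chain IL1RAP. The paired receptor recruits MyD88, which gathers IRAK4 and then IRAK1 and IRAK2. These engage TRAF6, a ubiquitin ligase whose chains are read by TAB2, and the kinase TAK1, encoded by Map3k7 and held by TAB1, is activated and phosphorylates the IKK complex and MAP kinase kinases. IRAK-M, encoded by Irak3, has little kinase activity and is best known from macrophages as a brake on Toll-like and IL-1 family receptors. TPL2, encoded by Map3k8, is held by the NF-kappaB precursor p105 until IKK frees it, and then feeds the ERK pathway.

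Irak3 was the member whose level differed most between libraries. Irak2, Irak4 and Tab2 differed the other way, Tab2 by the most. The DNA before the starts of Irak3 and Irak2 is shown. Irak3 lies on the reverse strand of chromosome 10, from 120141648 to 120202130 on mm10, and its longest annotated transcript has 12 exons. RefSeq places starts of Irak3 at 2 positions, 533 bases apart, and the counts sum both. The gene Tmbim4, on the opposite strand, overlaps the 250 bases before each of these starts. Irak2 lies on the forward strand of chromosome 6, from 113638467 to 113695026, and its longest transcript has 13 exons. The sequences are RefSeq's on GRCm38.p6, read 5′ to 3′ on the strand of the gene within the 250 bases before each start, without annotated UTR bases. Capitals mark CG dinucleotides. The first is chr10:120202131-120202380, the second chr10:120201660-120201847 and the third chr6:113638217-113638466.
Irak3 outer start: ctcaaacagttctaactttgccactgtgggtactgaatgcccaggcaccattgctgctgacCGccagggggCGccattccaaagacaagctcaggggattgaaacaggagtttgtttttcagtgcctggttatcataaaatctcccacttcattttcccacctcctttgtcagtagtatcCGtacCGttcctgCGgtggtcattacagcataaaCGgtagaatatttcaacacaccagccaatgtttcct
Irak3 inner start: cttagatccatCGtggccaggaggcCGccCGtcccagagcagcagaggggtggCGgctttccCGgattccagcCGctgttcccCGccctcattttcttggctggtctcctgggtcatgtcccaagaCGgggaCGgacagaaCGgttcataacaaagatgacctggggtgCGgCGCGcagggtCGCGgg
Irak2 start: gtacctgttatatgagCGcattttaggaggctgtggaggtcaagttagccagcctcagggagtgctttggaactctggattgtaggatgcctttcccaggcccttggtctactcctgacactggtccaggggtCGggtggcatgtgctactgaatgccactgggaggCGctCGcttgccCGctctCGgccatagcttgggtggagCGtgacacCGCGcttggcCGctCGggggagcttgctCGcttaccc

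The outer Irak3 stretch held 6 CG dinucleotides in 250 bases, the inner one 15 in 188 bases and the Irak2 stretch 12 in 250 bases. The median over 32851 RefSeq windows of 250 bases was 6. In both 250-base windows of Irak3, a search of both strands found none of 5 motifs searched. These were the NF-kappaB consensus, present in 3.90% of all windows, the AP-1 motif TGANTCA, present in 6.75%, and the E-box CACGTG, present in 6.02%. The others were TGATGNAA, present in 3.45% of windows, and the antioxidant response core TGACNNNGC, present in 10.2%. The Irak2 window held 1 match to that last motif, as did the Irak4 window and a window of Tab2. The Map3k7 window held 1 match to the NF-kappaB consensus. A match or its absence describes these letters only, and the counts do not tell the outer from the inner start.

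Counts per library ranged from 28827545 to 33662979, where 3 counts equal 0.0892 to 0.104 CPM (counts scaled to the size of the library), far below every member. Atg5 itself was at 66.3, 71.8 and 21.8 CPM in WT 1, WT 2 and the library labelled WT 3, and at 23.0, 25.6 and 52.2 CPM in KO 1, KO 2 and KO 3. The library labelled WT 3 thus lay below all 3 libraries labelled knockout, and KO 3 lay nearer to WT 1 and WT 2 than to KO 1 and KO 2. Across the 14052 genes tested, the correlation of the library labelled WT 3 was r = 0.991 with KO 1 and r = 0.946 with WT 1 (genes are not independent replicates). That of KO 3 was r = 0.979 with KO 1 and r = 0.980 with KO 2, and r = 0.933 with WT 1 and r = 0.935 with WT 2. By this measure KO 3 lay with its label, unlike its Atg5 level. All 12 ILC2 markers were present, summing to 15105 to 17841 CPM in wild-type and 11113 to 15091 CPM in knockout libraries. Il5 alone was 5352 to 9194 CPM of each sum. Within the list, Gata3 (1559 and 1533 CPM in WT 1 and WT 2, 900.1 to 964 CPM in the other 4), Id2 (2001 and 2138, then 932 to 1033 CPM), Klrg1 (526 and 556, then 121 to 174 CPM), Thy1 and Il1rl1 were lower in the 4 libraries where Irak3 was high. Rora (439 and 448, then 288 to 359 CPM), Areg, Il2ra and Icos were lower there as well. Il13 was higher (99.0 and 117, then 286 to 367 CPM), as was Il7r (95.5 and 93.1, then 97.9 to 106 CPM). Il5 did not divide the libraries so. Their part in the Irak3 difference was not tested. Every direction below is one between labels, and results are given with and without the library labelled WT 3. Separate mice are not stated for the libraries, so the p-values rest on a spread between samples that may be only technical.

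With all 6 libraries, 0 of the 10 genes passed an adjusted p of 0.05 in edgeR's quasi-likelihood test, as did 0% of all genes. Before adjustment, 1 of the 10, Tab2, was under 0.05, against 14.4% of all genes. Limma-voom called none of the 10, and DESeq2 called none of the 9 for which it gave a p. Without the library labelled WT 3, 5 of the 10 passed: Irak3 and Map3k8 rose, and Irak2, Irak4 and Tab2 fell. That fit called 33.9% of all genes. Without both libraries numbered 3, again 5 of the 10 passed, against 45.4% of all genes. The median log2 difference of the 10 was 0.06 with all libraries and 0.07 without the library labelled WT 3, against 0.02 and 0.02 over all genes tested. In 6 of the 10 genes, WT 1 and WT 2 both lay outside the range of the other 4, as they did in 57.8% of all genes tested. The library labelled WT 3 is singled out for its Atg5 level, and no other library, left out alone, gave a call for any member.

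**Figure D1:**
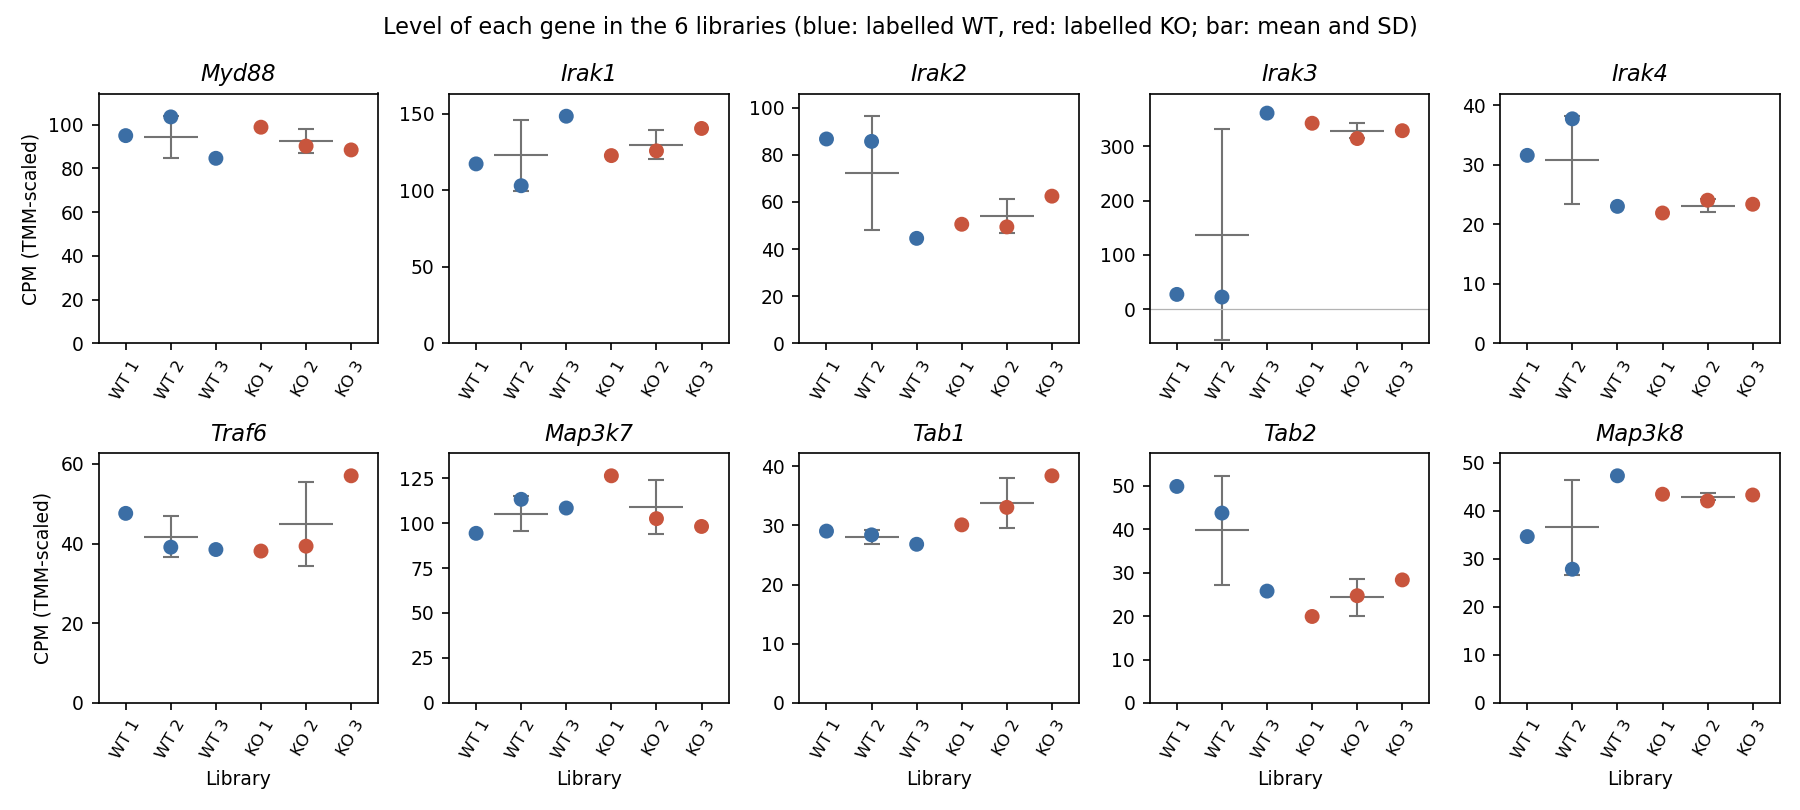
Level in CPM (vertical axes, each starting at or below 0) of the 10 genes in each of the 6 libraries, blue for the wild-type label and red for the knockout label, with the mean and SD of each label as a bar. Irak3 sits at 22.6 and 27.5 CPM in WT 2 and WT 1 and at 314 to 361 CPM in the other 4, while Myd88 and Map3k7 show no such division.

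Irak3, which encodes IRAK-M, was at 27.5 and 22.6 CPM in WT 1 and WT 2 but at 361 CPM in WT 3. It was at 342, 314 and 329 CPM in KO 1, KO 2 and KO 3. The library labelled WT 3 was the highest of all 6, so the labels overlapped, and the 3 libraries labelled knockout lay within a narrow band. The mean was 137 ± 194 CPM over the wild-type label and 328 ± 14.0 CPM over the knockout label (SD, n = 3 per label). The log2 difference of 1.26 (SE 1.00) did not pass with all libraries (adjusted p = 0.500, edgeR quasi-likelihood). Limma-voom gave 2.44 (SE 0.98, adjusted p = 0.295) and limma-trend 2.37 (SE 0.91, adjusted p = 0.298) for the same 6 libraries. DESeq2 gave no p for Irak3. Without the library labelled WT 3, Irak3 rose 13.2-fold (log2 difference 3.72, SE 0.13, adjusted p = 2.1e-05, edgeR). Its p was the seventh lowest of 14743 genes in that fit. Without both libraries numbered 3 the log2 difference was again 3.72 (SE 0.11, adjusted p = 2.9e-08, edgeR), in a fit with 2 libraries per label.

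Behind these levels stood 838 and 691 estimated counts in WT 1 and WT 2 and 9880 to 10886 in the other 4. By abundance among the 14052 tested genes, Irak3 ranked 6257 and 6822.5 (a tie) in WT 1 and WT 2 and between 433 and 561 in the rest. These are sorted cells in bulk, in which fewer cells of a kind and less RNA per cell cannot be told apart. IRAK-M is known from myeloid cells, so their markers were read beside it. Of 12 markers of macrophages, monocytes and dendritic cells, 9 were in the table, summing to 11.9 to 29.2 CPM for wild-type and 3.35 to 15.4 CPM for knockout libraries. The highest sum, in the library labelled WT 3, held 24.6 CPM of Chil3. Lyz2 was at most 1.93 CPM and Csf1r at most 1.11 CPM in any library. Both were highest in the library labelled WT 1, where Irak3 was low. Chil3 went partly with Irak3. It was higher in KO 1 (8.87 CPM) and KO 2 (5.68 CPM) than in WT 1 (3.11 CPM) or WT 2 (0.229 CPM). In KO 3, where Irak3 was also high, Chil3 was only 0.479 CPM. Of 6 neutrophil markers 2 were in the table, with a sum of at most 3.02 CPM. The summed markers of endothelium and stroma did divide the libraries as Irak3 did, at 8.57 and 10.4 CPM against 92.0 to 131 CPM. That sum was nearly all Pecam1, an adhesion molecule that leukocytes also carry, at 10.4 and 8.54 CPM in WT 1 and WT 2 and 92.0 to 131 CPM elsewhere. Col1a1 and Col1a2 were at most 0.542 CPM. The T cell marker sum (41.6 and 43.4 CPM against 21.8 to 25.8 CPM) and the epithelial sum (58.2 and 52.7 CPM against 9.35 to 29.3 CPM) divided them in the opposite sense. Each was carried by 1 gene, Cd3g (35.3 and 37.2 CPM against 11.4 to 18.8 CPM) and Epcam (57.4 and 52.3 CPM against 8.90 to 14.3 CPM). Cd3e, at 2.39 to 4.41 CPM, did not divide the libraries so, and Krt8 and Krt18 were below 1 CPM throughout. Mast cell and basophil markers summed to 12.4 to 20.4 CPM in wild-type and 9.29 to 16.8 CPM in knockout libraries. Among them Tpsab1 followed Irak3 (0.721 and 0.196 CPM, then 5.85 to 6.48 CPM), while Cpa3 (8.98 and 5.73 CPM, then 0.447 to 3.43 CPM) and Fcer1a went the other way. B cell markers, nearly all Cd79b, summed to 13.5 to 19.5 CPM and 6.67 to 14.3 CPM. The part of any of these cells in the Irak3 level was not tested. The exons of Irak3 share 192 bases, 5.22% of their length, with Tmbim4 on the opposite strand. Tmbim4 was itself at 110 and 121 CPM in WT 1 and WT 2 and at 133 to 154 CPM in the other 4. The part of its reads in the Irak3 value was not tested.

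Irak2, a kinase relative that works beside IRAK1 and sustains signalling to TRAF6, was at 86.7 and 85.7 CPM in WT 1 and WT 2 and 44.5 CPM in WT 3. It was at 50.5, 49.4 and 62.4 CPM in KO 1, KO 2 and KO 3. The library labelled WT 3 was again the farthest from its label, here as the lowest of 6. The log2 difference was -0.42 with all libraries (SE 0.27, adjusted p = 0.418, edgeR). Without the library labelled WT 3, Irak2 fell by 0.66 in log2 units (SE 0.13, adjusted p = 0.00714, edgeR), to 0.631 of the wild-type level.

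Irak4, the kinase that starts the cascade at MyD88, was at 31.6 and 37.7 CPM in WT 1 and WT 2 and at 23.0 CPM in WT 3. It was at 21.9, 24.0 and 23.4 CPM under the knockout label, so the library labelled WT 3 lay inside the knockout range. The log2 difference was -0.41 (SE 0.21, adjusted p = 0.360, edgeR), and without the library labelled WT 3 Irak4 fell by 0.58 (SE 0.14, adjusted p = 0.0186, edgeR). Its exons share 395 bases, 7.87% of their length, with Twf1 on the opposite strand. Twf1 was itself at 53.5 and 50.7 CPM in WT 1 and WT 2 and at 31.0 to 39.1 CPM in the others. The sources used here do not say whether counting used strand, and the part of Twf1 reads in the Irak4 value was not tested.

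Irak1, the kinase that IRAK4 phosphorylates and that recruits TRAF6, was at 117, 103 and 148 CPM in WT 1, WT 2 and the library labelled WT 3 and at 123, 126 and 140 CPM in KO 1, KO 2 and KO 3. The labels overlapped, and it passed in neither fit (edgeR log2 difference 0.08 with SE 0.17 and adjusted p = 0.814 for all libraries, and 0.24 with SE 0.11 and adjusted p = 0.129 for those other than the library labelled WT 3).

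Set on a common scale of CPM per kb of exon, the make-up of the IRAK transcripts was turned over between libraries. Irak3 made up 12.8% and 11.2% of the summed Irak level in WT 1 and WT 2, 68.0% in WT 3 and 69.0%, 66.7% and 64.8% in KO 1, KO 2 and KO 3. Irak2 made up 33.7% and 35.4%, then 6.997%, then 8.49%, 8.74% and 10.3% in the same order. Irak1 made up 42.7% and 39.8%, then 21.8%, then 19.3%, 20.8% and 21.6%. Shares of one sum move together. The level of Irak2 itself was 19.7 and 19.4 CPM per kb in WT 1 and WT 2 and 10.1 to 14.2 CPM per kb elsewhere, and that of Irak1 was 24.9 and 21.8, then 26.01 to 31.5 CPM per kb. The ratio of Irak3 to Irak1 per kb was 0.301 and 0.282 in WT 1 and WT 2, and 3.00 to 3.58 in the other 4. In the first 2 libraries the catalytically active kinase IRAK1 had the most abundant of the 4 transcripts, and in the other 4 the brake IRAK-M did.

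**Figure D2:**
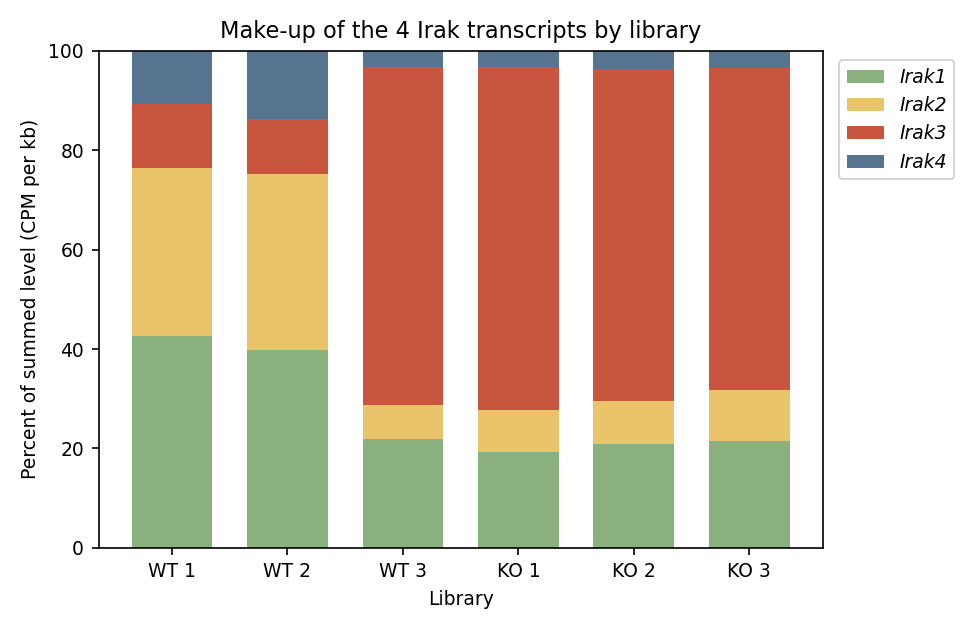
Share in percent of each Irak gene in the summed level of the 4 (CPM per kb of exon, vertical axis) for each library (horizontal axis). Irak3 takes 11.2% and 12.8% in WT 2 and WT 1 and 64.8% to 69.0% in the other 4.

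Myd88, the adaptor that joins the receptor to the IRAKs, was at 95.0, 104 and 84.6 CPM in WT 1, WT 2 and the library labelled WT 3 and at 98.8, 90.2 and 88.4 CPM in KO 1, KO 2 and KO 3. The ranges overlapped, and the highest and the lowest level were both under the wild-type label. Its log2 difference was -0.03 with all libraries (SE 0.13, adjusted p = 0.912), and it was -0.10 once the library labelled WT 3 was left out (SE 0.10, adjusted p = 0.513, edgeR). Exons of Myd88 share 290 bases, 11.3% of their length, with Acaa1a on the opposite strand. Acaa1a was at 102 and 108 CPM in WT 1 and WT 2 and at 69.3 to 85.2 CPM in the other 4, and the part of its reads in the Myd88 value was not tested.

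Traf6, the ubiquitin ligase, was at 47.6, 39.1 and 38.5 CPM in WT 1, WT 2 and the library labelled WT 3. It was at 38.1 and 39.4 CPM in KO 1 and KO 2 and at 57.0 CPM in KO 3. The library labelled KO 3 was the highest, and the other 5 gave no division by label. The log2 difference was 0.10 (SE 0.20, adjusted p = 0.790) with all libraries, 0.06 with the library labelled WT 3 left out (SE 0.20, adjusted p = 0.867) and -0.10 without KO 3 (SE 0.16, adjusted p = 0.760, edgeR).

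Map3k7, which encodes TAK1, was at 94.3, 113 and 108 CPM under the wild-type label and at 126, 102 and 98.1 CPM under the knockout label. It passed in neither fit (log2 difference 0.05, SE 0.15, adjusted p = 0.868 with all libraries, edgeR). Tab2, the reader of ubiquitin chains, was at 49.9 and 43.7 CPM in WT 1 and WT 2, 25.8 CPM in WT 3, and 19.9, 24.7 and 28.3 CPM in KO 1, KO 2 and KO 3. The library labelled WT 3 lay between KO 2 and KO 3. The log2 difference was -0.71 (SE 0.27, adjusted p = 0.342, edgeR) and, without the library labelled WT 3, Tab2 fell by 0.94 (SE 0.17, adjusted p = 0.00569, edgeR), to 0.522 of the wild-type level.

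Tab1, which holds TAK1 in its active form, was the 1 gene of the 10 whose labels did not overlap, against 18.5% of all genes tested. All knockout libraries lay above all wild-type ones in 9.26% of genes, as here, and below them in 9.22%, which held for 0 of the 10. It was at 29.04, 28.4 and 26.8 CPM under the wild-type label and at 30.1, 33.1 and 38.4 CPM under the knockout label, a gap of about 1 CPM between the nearest libraries (29.04 and 30.1 CPM). It passed in neither fit, with a log2 difference of 0.27 (SE 0.15, adjusted p = 0.383) in all libraries and 0.24 (SE 0.15, adjusted p = 0.249) in those without the library labelled WT 3 (edgeR).

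Map3k8, which encodes TPL2, was at 34.6, 27.9 and 47.3 CPM in WT 1, WT 2 and the library labelled WT 3 and at 43.5, 42.1 and 43.3 CPM in KO 1, KO 2 and KO 3. The library labelled WT 3 was the highest of all. The log2 difference was 0.23 (SE 0.21, adjusted p = 0.545, edgeR), and without the library labelled WT 3 Map3k8 rose by 0.47 (SE 0.14, adjusted p = 0.0358, edgeR), a 1.38-fold difference. Of the 5 members called in that fit, this one lay nearest the threshold.

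**Figure D3:**
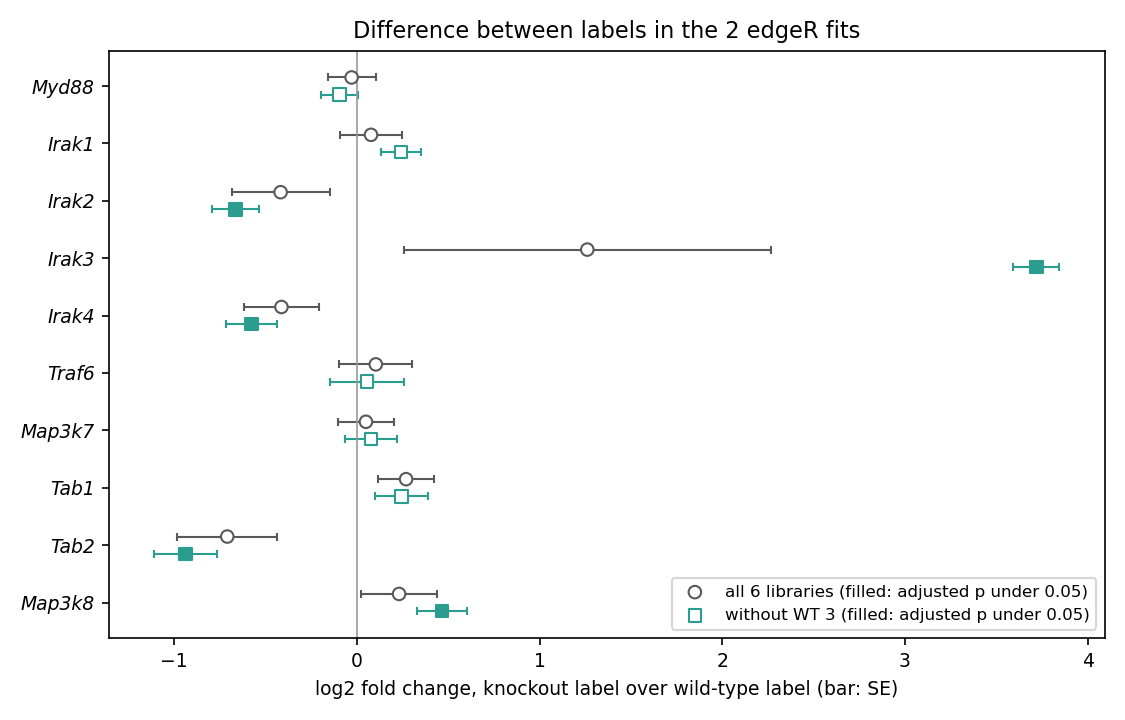
Log2 fold change of knockout over wild-type label (horizontal axis, bars are SE) for the 10 genes in edgeR fits to all 6 libraries (circles) and without the library labelled WT 3 (squares), filled where adjusted p is under 0.05. No circle is filled, and the filled squares are Irak3 at 3.72, Map3k8 at 0.47, Irak4 at -0.58, Irak2 at -0.66 and Tab2 at -0.94.

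Per kb of exon, Myd88 was the most abundant of the 10 in WT 1 and WT 2 (36.9 and 40.2 CPM per kb), followed by Irak1 and then Irak2. In the library labelled WT 3 and in all 3 labelled knockout, Irak3 was first and Myd88 followed or, per kb of the longest transcript, Myd88 or Irak1 did. Under the knockout label Irak3 averaged 89.3 ± 3.82, Myd88 35.9 ± 2.16, Irak1 27.5 ± 2.01, Map3k7 16.96 ± 2.36 and Irak2 12.3 ± 1.64 CPM per kb (SD, n = 3 each), and none of these neighbours overlapped. The lower levels were close: Irak2 with Tab1, Tab1 with Map3k8, and Irak4 with Tab2 overlapped in range. Irak4 and Traf6 were among the least abundant, at 4.60 ± 0.219 and 5.69 ± 1.34 CPM per kb under the knockout label and at 6.13 ± 1.47 and 5.29 ± 0.644 under the wild-type label (SD, n = 3 each). Under the wild-type label the mean of Irak3 (37.3 ± 52.7 CPM per kb) describes no library, since its libraries stood at 7.47, 6.15 and 98.2 CPM per kb.

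Other genes of the pathway were read from 6 lists of 92 genes, of which 84 were in the count table and 78 were tested with all libraries. None passed there in edgeR, and 13 of the 78 had an unadjusted p under 0.05, where 14.4% of all genes did. DESeq2 called 1, Tlr2 (adjusted p = 0.0453, lower under the knockout label), against 2.3% of all genes. Without the library labelled WT 3, 34 of 79 passed, 14 higher and 20 lower under the knockout label, where the background was 17.7% higher and 16.1% lower. The median log2 difference was -0.10 with all libraries and -0.13 without the library labelled WT 3.

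With the library labelled WT 3 left out, 11 receptors were tested, of which 0 rose and 5 fell. Of all genes in that fit, 17.7% rose and 16.1% fell. Il1rl1, the IL-33 receptor, fell by 1.00 in log2 units (SE 0.10, adjusted p = 0.000527, edgeR), while its partner Il1rap, at 11.1, 7.30 and 19.1 CPM in wild-type and 11.6 to 13.9 CPM in knockout libraries, did not pass. Il18r1, a receptor chain for IL-18, was at 1.95 to 3.89 CPM throughout and did not pass. Tlr2, Tlr4, Tlr1 and Il1r2 were the other 4 that fell, named after their values were seen.

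Of 8 receptor-proximal adaptors and regulators tested, 2 rose and 3 fell in the same fit, against 17.7% and 16.1% of all genes. Sigirr, an inhibitor of ST2 signalling, fell by 0.50 (SE 0.10, adjusted p = 0.00788, edgeR), from 148 and 153 CPM in WT 1 and WT 2 to 99.3 to 115 CPM under the knockout label, with 99.3 CPM in WT 3. Peli1, a ubiquitin ligase for IRAKs, fell by 0.47 (SE 0.09, adjusted p = 0.00585, edgeR). Tollip, an inhibitor that binds IRAK1, was at 119, 128 and 118 CPM and then at 96.8 to 113 CPM. Its labels did not overlap, as in 18.5% of all genes tested. It passed only without both libraries numbered 3 (log2 difference -0.25, SE 0.09, adjusted p = 0.0450, edgeR). Of the other named pathway genes, Peli1, Cyld, Traf1, Traf3, Ikbkg and Mapk14 also had labels that did not overlap.

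Ubiquitin writers, readers and erasers had 7 that rose and 3 that fell of 18 in that fit, against 17.7% and 16.1% of all genes. Tnfaip3, which encodes A20, an enzyme that edits chains on TRAF6, rose by 1.00 (SE 0.17, adjusted p = 0.00465, edgeR), at 51.0, 50.4 and 99.8 CPM in wild-type and 79.7 to 120 CPM in knockout libraries. Cyld, a deubiquitinase for TRAF6 chains, fell by 0.66 (SE 0.09, adjusted p = 0.00183, edgeR), at 139 and 139 CPM in WT 1 and WT 2, 98.5 CPM in WT 3 and 81.7 to 92.3 CPM in KO 1 to KO 3. Ube2n, the conjugating enzyme that works with TRAF6, did not pass (log2 difference 0.16, SE 0.11, adjusted p = 0.288, edgeR) but did without both libraries numbered 3 (0.24, SE 0.07, adjusted p = 0.0249, edgeR). Zc3h12a, which encodes the RNase Regnase-1 that cuts cytokine messages, was singled out after its values were seen. It was at 13.0 and 13.7 CPM in WT 1 and WT 2, 114 CPM in WT 3 and 106, 115 and 116 CPM in KO 1, KO 2 and KO 3. Its log2 difference was 1.26 (SE 0.82, adjusted p = 0.422) with all libraries and 3.08 (SE 0.11, adjusted p = 2.1e-05) without the library labelled WT 3 (edgeR).

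Of 8 other TRAF genes in that fit, 2 rose and 1 fell, against 17.7% and 16.1% of all genes. Traf1 rose by 0.84 (SE 0.09, adjusted p = 0.000733, edgeR) and stood at 287 and 292 CPM in WT 1 and WT 2, 468 CPM in WT 3 and 474 to 545 CPM in KO 1 to KO 3. Traf2 was at 92.5 CPM in WT 1 and WT 2, 135 CPM in WT 3 and 122 to 154 CPM in KO 1 to KO 3. It rose by 0.59 (SE 0.12, adjusted p = 0.00823, edgeR), and Traf3 did not pass (0.38, SE 0.13, adjusted p = 0.0604, edgeR). Without both libraries numbered 3, Traf3 passed (0.35, SE 0.12, adjusted p = 0.0453, edgeR). The 1 that fell was Trafd1, named after its values were seen.

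Below TAK1 and TPL2, 3 genes rose and 4 fell of 21 tested in the fit to the 5 libraries other than the one labelled WT 3, near the shares of 17.7% and 16.1% over all genes, and 0 of the 21 passed with all libraries. Of the IKK genes, Chuk was at 113 to 135 CPM, Ikbkb at 131 to 171 CPM and Ikbkg at 54.8 to 77.2 CPM over the 6 libraries, and none passed with all libraries or without the library labelled WT 3. Nfkb1, whose p105 product holds TPL2, was at 218 to 258 CPM, and Tnip2, which encodes its partner ABIN2, at 36.6 to 45.6 CPM, and neither passed in those fits. Nfkb1 did pass without both libraries numbered 3 (log2 difference -0.20, SE 0.07, adjusted p = 0.0399, edgeR). Tab3, the relative of TAB2, was at 5.24 to 8.31 CPM and did not pass. Mapk14 and Mapk8, the p38 alpha and JNK1 genes, passed only without both libraries numbered 3, at log2 differences of -0.26 (SE 0.09, adjusted p = 0.0328) and 0.98 (SE 0.30, adjusted p = 0.0252, edgeR). Of 13 other MAP3K genes tested, 4 fell in the fit omitting only the library labelled WT 3, against 16.1% of all genes. In that fit 0 of the 13 rose, against 17.7% of all genes. Map3k14, the kinase of the non-canonical NF-kappaB route, was not among the 4 that fell (27.0 to 38.9 CPM).

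**Figure D4:**
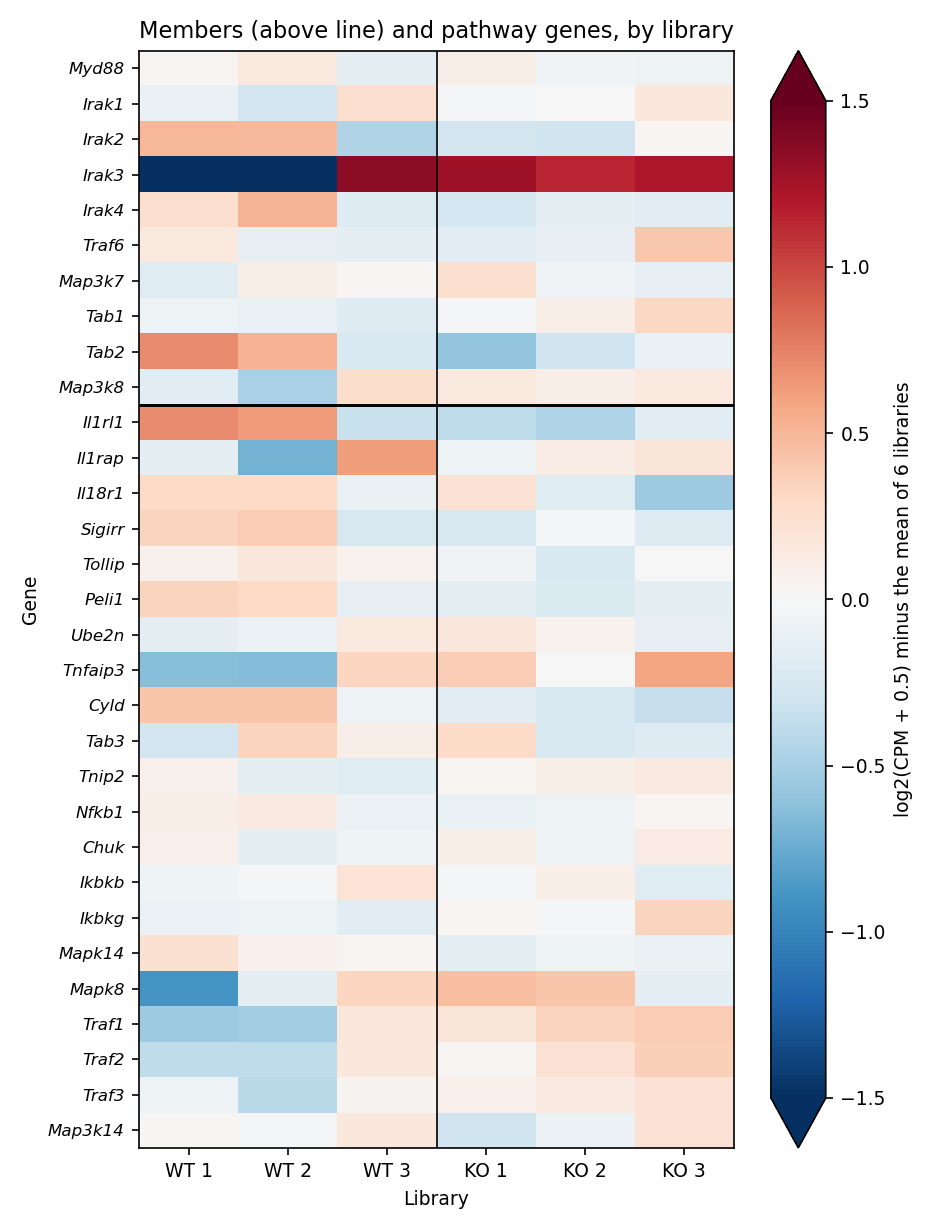
Log2(CPM + 0.5) of each gene minus its mean over the 6 libraries (colour), for the 10 genes above the line and 21 pathway genes below it, with libraries as columns and colours held at 1.5 beyond that size. Irak3 shows the widest division of the 31 genes, and Myd88, Map3k7, Chuk and Tnip2 are nearly even.

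Over the 6 libraries, the genes most alike in pattern were sought among 8682 others whose log2 CPM averaged 3 or more, by Pearson correlation of log2(CPM + 0.5). Nearest to Irak3 were Fastkd2 and Cdv3 (r = 1.00 and 0.999), and 1235 genes were above 0.95, since many genes divided the libraries in the same way. Nearest to Irak2 were Dst and Acad11 (r = 0.998 and 0.997), to Irak4 Apobr and Arap1 (r = 0.996 and 0.995), and to Tab2 AW549877 and Aplp1 (r = 0.997 and 0.997), with 329, 362 and 322 genes above 0.95. Map3k8 was nearest to Thoc5 and Urb2 (r = 0.996 and 0.993). Fewer genes followed the others. Irak1 was nearest to Serpinb9 and Ncdn (r = 0.993 and 0.990), Tab1 to Rala and Atf7 (r = 0.991 and 0.991) and Traf6, with its high level in the library labelled KO 3, to Spen and N4bp1 (r = 0.998 and 0.991). Myd88 was nearest to Rpe and Bicd1 (r = 0.971 and 0.958) and Map3k7 to Ccdc90b and Brap (r = 0.962 and 0.954), each with 3 genes above 0.95. The points share libraries and depth, and the values are descriptions.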

How the data were processed

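The authors deposited estimated counts per gene and a second table of normalized signal. Tools named in the submitters' processing notes, without roles, are Partek, STAR and CASAVA 1.8.2, and the build is mm10. The sources used here do not give the counting rule for shared reads or strand. In the estimated counts, 47.1% to 48.5% of values per library were whole (within 1e-06). The signal that the authors deposited is the estimated count with 1 added, scaled by a factor of its own for each library (31.2 to 36.0). It entered an alternative only.

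Table columns were matched to samples by names that the labels repeat, and groups come from sample titles. Rounded estimated counts went through edgeR 4.0.16 under R 4.3.3 (filterByExpr, TMM, robust glmQLFit, glmQLFTest, no covariate), with Benjamini-Hochberg adjustment over all genes tested and a threshold of 0.05. SEs were derived from the log2 difference and the square root of F. CPM use TMM-adjusted library sizes. Levels per kb use the union of exons in GENCODE vM21. Gene positions of all members but Tab1 matched that release. Floors of 3 counts cover counting error only. Of 9 members sought by symbol among RefSeq's windows, 8 were found, and Tab1 was not. Map3k8 was not sought, so neither Tab1 nor Map3k8 was searched for motifs.

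The members and the pathway and marker lists were chosen with earlier results of these data known. Named pathway genes were fixed by role (21 genes). Of each member, the 2 genes with the highest correlation are named. Alternatives were other library scaling, other filters, DESeq2 1.42.0, limma-voom and limma-trend (limma 3.58.1) on log2 of the authors' signal plus 1, non-robust dispersion, a replicate block and left-out libraries.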

Additional observations from a re-analysis of the deposited data

How the results depend on the processing

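With all 6 libraries, edgeR called 0 genes, 0 members and 0 pathway genes under every scaling and filter tried, with non-robust dispersion and with the replicate block, as did limma-voom and limma-trend. DESeq2 called 323 genes, 0 members and 1 pathway gene. Leaving out 1 library at a time, edgeR called 0 to 4991 genes, 0 to 5 members and 0 to 34 pathway genes, and all calls came without the library labelled WT 3. Without both libraries numbered 3, it called 6505 genes, 5 members and 48 pathway genes. Of 31 named genes, 12 came past the threshold without the library labelled WT 3, against 33.9% of all genes. Without both libraries numbered 3, 18 of the 31 did, against 45.4% of all genes. Some small log2 differences changed sign. Without both libraries numbered 3, Traf6 was at -0.15 and Ikbkb at 0.10. Over the 6 left-out libraries the log2 difference ranged from -0.10 to 0.042 for Myd88, -0.036 to 0.24 for Irak1, -0.10 to 0.21 for Traf6 and -0.066 to 0.12 for Map3k7. It ranged from -0.23 to 0.49 for Il1rap, -0.023 to 0.16 for Ube2n, -0.30 to 0.061 for Tab3, -0.16 to 0.027 for Ikbkb and -0.24 to 0.023 for Map3k14. Irak3 ranged from 0.76 to 3.72 and kept its sign. Deviations from the label means were hardly correlated between libraries of the same number (-0.04, 0.02 and -0.01 for numbers 1, 2 and 3). Under the wild-type label these deviations hold the split of WT 3 from WT 1 and WT 2, so a weak pairing could be missed. With the replicate block no member was called, and the log2 difference of Irak3 was 2.59 (SE 0.99, adjusted p = 0.349, edgeR). Of 20 ranks by level per kb, 4 moved by 1 place with the longest transcript, those of Tab1 and Map3k8 under each label. Depth did not limit the members, whose lowest level in any library was 19.9 CPM (Tab2 in KO 1). The precision is set by 3 libraries per label, of which at least 1 goes against its label by Atg5.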
